A study of Mus musculus with 12 samples.

Results

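The comparison set mice lacking both gastrin and cholecystokinin (CCK) against wild-type mice, in RNA scraped from the mucosa of the fundus, the part of the stomach that makes acid. It used 6 of the 12 arrays of the series, 3 labelled as gastrin-CCK double knockout and 3 labelled as wild type, and every probe set except the array's own controls. Each wild-type sample came from about 2 to 4 mice, while the number of mice behind a double-knockout sample, the way either allele was made, the strain and the age of both groups are not stated in the labels. Neither group was described as infused. A further group of 3 arrays, gastrin knockout mice given saline for 1 week and described as males of 2 months, is used below beside the double knockout. Whether the 3 samples of one group came from separate animals is not stated, so p-values measure only how samples of a group spread, which may be a technical spread. That spread was estimated over all 12 arrays, including the saline-infused group and 3 arrays of gastrin knockout mice infused with gastrin for 1 week. A fit to the 6 compared arrays alone called 43 probe sets in place of 936.

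Gastrin is a hormone of the antrum that reaches the fundus through the blood. It binds the CCK2 receptor, the product of Cckbr, on enterochromaffin-like cells, which respond by releasing histamine made by the enzyme Hdc, and histamine in turn drives the parietal cell to secrete acid. CCK is a related peptide that binds the same receptor and also the CCK1 receptor, the product of Cckar, through which it stimulates the somatostatin cells that restrain acid secretion.

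The arrays read each transcript with 1 or more sets of short probes, and the intensity of a probe set is in arbitrary units that can fall below 0. The medians of the 6 arrays lay between 403 and 421. The correlation of log2 values was 0.962 to 0.965 among wild-type arrays, 0.957 to 0.973 among double-knockout arrays and 0.938 to 0.963 between the groups. The brightest value lay between 92582 and 110146 on wild-type arrays and between 65365 and 71514 on double-knockout arrays. In the brightest of 10 equal bins of probe sets the median log2 difference was -0.13 on the deposited values and -0.01 after quantile normalization, which gives every array the same distribution of values. Each result below was therefore computed under both scalings. The double-knockout arrays also stood apart in the control transcripts added before hybridization. The bacterial BioC control (5' probe set) read 4908 ± 627 (SD, n = 3) in wild type and 2029 ± 263 in the double knockout, and BioB (5' probe set) read 209 ± 39.3 and 731 ± 141. These controls carry no mouse RNA, and genotype and array handling cannot be told apart in this comparison. The Gapdh control, read at its 3' and 5' ends as a sign of RNA integrity, had a 3'/5' ratio of 1.51, 2.00 and 0.98 on the wild-type arrays and 1.29 to 1.32 on the double-knockout arrays.

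**Figure D1:**
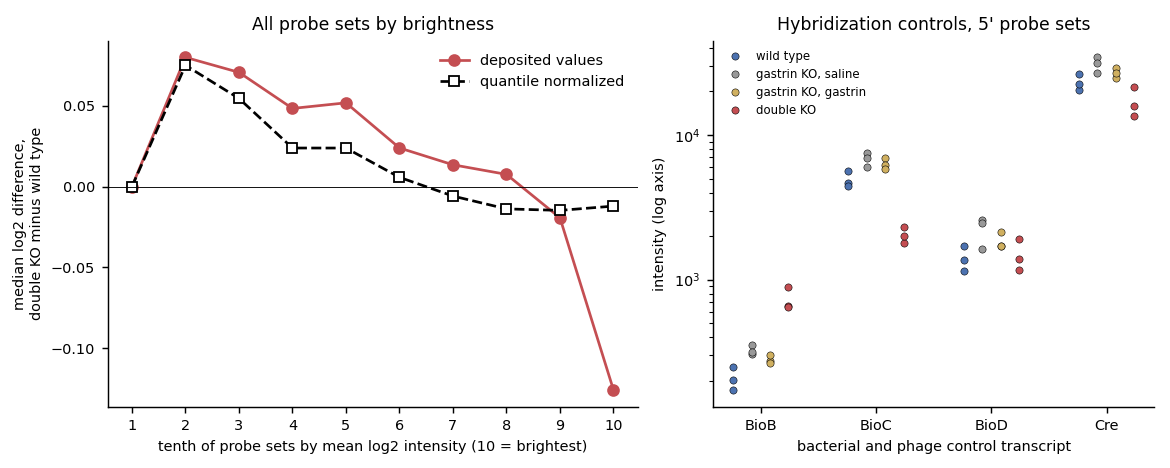
Left, the median log2 difference between double knockout and wild type (y axis) in 10 equal bins of probe sets ordered by mean log2 intensity (x axis), for deposited values (filled circles) and after quantile normalization (open squares). The deposited values drop to -0.13 in the brightest bin and the normalized ones end at -0.01. Right, the intensity of 4 hybridization controls (log axis) on each of the 12 arrays, with the 3 double-knockout arrays above all others for BioB and below all others for BioC.

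Gast, the gastrin gene, read 596, 318 and 823 in wild type and -64, -35 and -162 in the double knockout. The wild-type arrays carried a clear signal and the double-knockout values lay within the noise, so Gast was at least 7.18-fold lower (limma, adjusted p = 0.000547). Cck read 17, 98 and 48 in wild type and 40, 54 and 130 in the double knockout. Both sets of values were near the noise level, so this probe set says nothing of the second deletion. Of the receptor genes, Cckbr read 639, 665 and 488 against 396, 367 and 257 on its brighter probe set, a log2 difference of -0.82 ± 0.22 (SE) that did not pass (adjusted p = 0.0723). The groups did not overlap there, whereas on the other Cckbr probe set they did (-0.31 ± 0.28, adjusted p = 0.599). Cckar read 2743 ± 420 in wild type and 2676 ± 221 in the double knockout (-0.03 ± 0.13, adjusted p = 0.963).

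Of the enterochromaffin-like cell's genes, Hdc and Chga fell. Their promoters are shown together with that of Pigr, the largest rise named here, to place these genes and the common promoter letters they hold. The sequences are those of RefSeq on GRCm38.p6, from 250 bases before to 50 bases after the annotated start, on the strand of the gene. Capitals mark matches on either strand to GGGCGG (the GC box), TGACGT (the core of a cyclic AMP response element), TATAAA (the TATA box) or CACGTG (an E box), and no 2 matches overlap. Hdc lies at chr2:126618629-126618928 (minus strand), Chga at chr12:102554691-102554990 (plus strand) and Pigr at chr1:130826434-130826733 (plus strand).
Hdc: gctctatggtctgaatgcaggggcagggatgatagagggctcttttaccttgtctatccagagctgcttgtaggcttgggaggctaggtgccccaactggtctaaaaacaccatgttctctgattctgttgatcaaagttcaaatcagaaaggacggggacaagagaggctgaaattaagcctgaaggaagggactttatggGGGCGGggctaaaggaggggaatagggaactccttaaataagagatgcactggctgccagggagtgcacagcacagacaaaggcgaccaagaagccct
Chga: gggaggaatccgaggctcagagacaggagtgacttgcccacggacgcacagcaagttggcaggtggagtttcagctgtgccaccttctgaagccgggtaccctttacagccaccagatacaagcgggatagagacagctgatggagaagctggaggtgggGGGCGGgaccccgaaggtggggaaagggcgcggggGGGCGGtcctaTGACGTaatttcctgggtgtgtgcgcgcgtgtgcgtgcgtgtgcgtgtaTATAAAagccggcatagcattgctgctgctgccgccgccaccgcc
Pigr: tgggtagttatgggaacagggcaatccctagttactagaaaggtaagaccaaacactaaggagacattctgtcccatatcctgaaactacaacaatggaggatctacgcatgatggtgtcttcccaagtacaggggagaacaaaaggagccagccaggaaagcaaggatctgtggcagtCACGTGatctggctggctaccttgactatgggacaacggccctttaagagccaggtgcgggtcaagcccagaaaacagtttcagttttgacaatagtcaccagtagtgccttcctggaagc
The Hdc window holds 1 GC box, which begins 48 bases before the start. In the Chga window there are 2 GC boxes, beginning 90 and 55 bases before the start, a cyclic AMP response core at 44 bases before it and the TATA box letters at 5 bases after it. These distances are from the annotated start, and whether the mucosa uses that start or any of the matches was not tested. The Pigr window holds 1 E box, at 71 bases before the start. Among 32851 promoter windows of the same length, 35.7% hold the GC box letters, 7.51% the cyclic AMP response core, 13.6% the TATA box and 7.15% the E box.

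Hdc, the histidine decarboxylase that makes histamine, fell on both of its probe sets. One read 490, 686 and 416 in wild type and -54, -2 and -86 in the double knockout. The knockout values were all within the noise, and Hdc was at least 6.92-fold lower on that probe set (adjusted p = 1.70e-05). The other read 413, 672 and 717 against 71, 12 and 93, at least 7.56-fold lower. The call of that second probe set was close to the threshold (adjusted p = 0.0493) and was lost with any 1 of the 6 arrays left out (adjusted p between 0.0747 and 0.13), while the first was called in every such fit. Chga, for the granule protein chromogranin A, read 6049, 10288 and 7063 in wild type and 2987, 2499 and 2262 in the double knockout. The groups did not overlap and the log2 difference was -1.57 ± 0.21 (adjusted p = 0.00833). The related granin Chgb read 877, 1927 and 935 against 638, 606 and 303, without overlap, and did not pass (-1.25 ± 0.39, adjusted p = 0.117).

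Of 18 measured genes of the enterochromaffin-like cell and its secretory granule, 0 rose and 2 fell, where 2.02% of all 22626 probe sets rose and 2.12% fell. The median log2 difference over the 18 was -0.18, against 0 over all probe sets. The double-knockout arrays lay wholly below wild type for 5 of the 18 and wholly above for 1, where 12.9% and 11.6% of all probe sets did. Besides Hdc, Chga and Chgb these were Scg5 (503, 544 and 486 against 383, 342 and 193) and Resp18 (343, 480 and 525 against 288, 183 and 206), both genes of neuroendocrine granules. The remaining members included the carboxypeptidase gene Cpe (0.14 ± 0.23) and the neuroendocrine transcription factor gene Neurod1, at 0.24. In RNA of a whole mucosa, fewer cells of a type and less RNA per cell cannot be told apart.

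**Figure D2:**
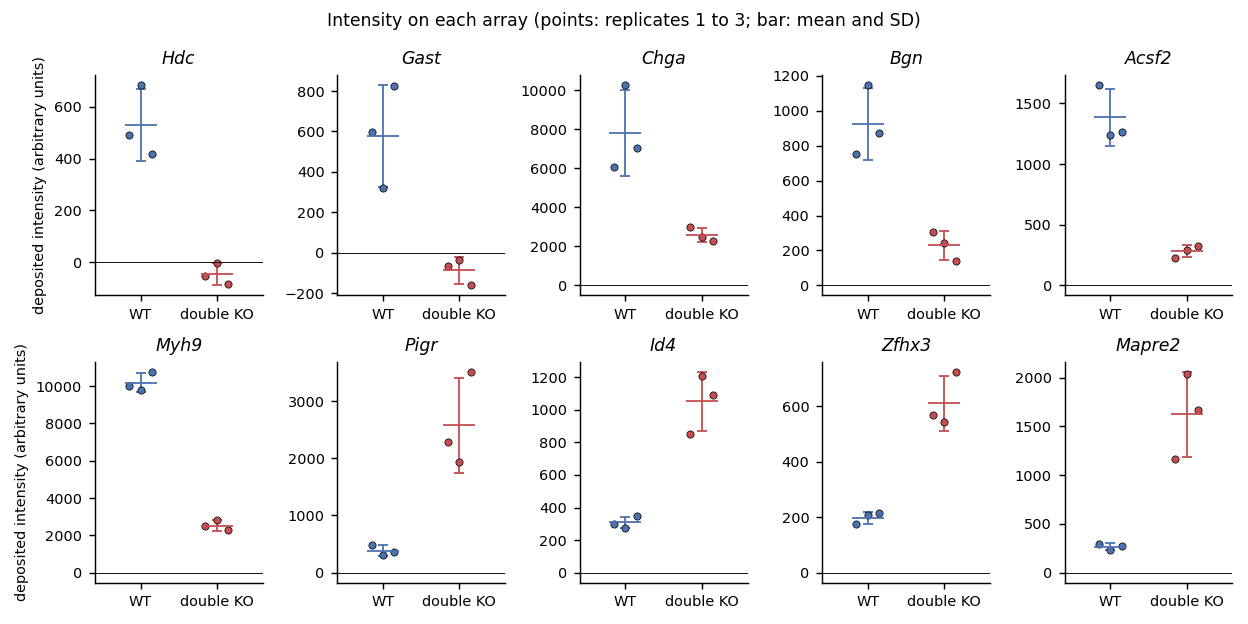
Deposited intensity (y axis, arbitrary units, each panel with its own scale) of 10 genes on the 3 wild-type (WT) and 3 double-knockout arrays, with each point an array and the bars the mean and SD. Hdc and Gast sit at or below 0 in the double knockout, Chga, Bgn, Acsf2 and Myh9 are lower without overlap, and Pigr, Id4, Zfhx3 and Mapre2 are higher without overlap.

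Among the other endocrine genes, Sst, for the acid-inhibiting hormone somatostatin, read 16905, 23726 and 15346 in wild type and 13737, 12221 and 9744 in the double knockout. Its arrays did not overlap but the difference did not pass (-0.64 ± 0.20, adjusted p = 0.111). Ghrl, for the appetite hormone ghrelin, was lower on the deposited values (37358 ± 4873 against 24333 ± 2180, -0.61 ± 0.10, adjusted p = 0.0176) and was not called after quantile normalization (-0.32, adjusted p = 0.139) or without double-knockout replicate 3 (adjusted p = 0.052). It was the only one of 11 measured genes of this list to pass, where 4.14% of all probe sets passed. None of the 12 measured receptors that set acid secretion passed the limma test, although 1 had an unadjusted p under 0.05, as had 4442 of all 22626 probe sets (19.6%). The histamine receptor gene Hrh2 read 1159 ± 82.8 against 1102 ± 116.

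Parietal, chief and surface mucous cells supply the brightest transcripts of the tissue, and for these the scaling set the result. Of 20 measured parietal cell genes, 3 fell on the deposited values, where 2.12% of all probe sets did. Only 1 of them fell after quantile normalization, where 2.25% of all probe sets fell and 2.43% rose. That gene was Ckb, the creatine kinase of brain type, which read 13488, 16516 and 12404 against 8716, 7667 and 6555 (-0.89 ± 0.17, adjusted p = 0.0296, and -0.76 after normalization, adjusted p = 0.019). Its groups were apart, although the deposited call was lost without wild-type replicate 1 or 2 or any double-knockout replicate (adjusted p up to 0.0853). The genes of both proton pump subunits lost their call. Atp4a, the catalytic subunit, read 60910 ± 6209 against 39921 ± 2421 (-0.61 ± 0.11, adjusted p = 0.0229), and after normalization the difference was -0.18 (adjusted p = 0.256). Its deposited call was also lost without wild-type replicate 2 or 3 or double-knockout replicate 1 or 3 (adjusted p up to 0.0695). Atp4b read 78267 ± 9085 against 48755 ± 1850 (-0.68 ± 0.09, adjusted p = 0.00802), and after normalization the difference was -0.14 (adjusted p = 0.46). The potassium channel genes Kcnq1 (-0.37 ± 0.24, adjusted p = 0.439) and Kcne2 (-0.45 ± 0.13, adjusted p = 0.103) did not pass under either scaling.

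The list of chief cell genes gave the same split. Of 14 measured, 4 fell on the deposited values, where 2.12% of all probe sets fell. They were Pgc (progastricsin), Cblif (intrinsic factor), Chia1 (a chitinase) and Clps (colipase), with wild-type means between 43058 and 97715. The Cblif call was lost with any 1 array left out (adjusted p up to 0.0981), and that of Chia1 without wild-type replicate 1 or double-knockout replicate 1 or 2 (up to 0.071). After normalization none of the 4 was called, while 1 other member was, and Pgc stood at -0.14 in place of -0.71 ± 0.07 and Chia1 changed side, from -0.57 ± 0.10 to 0.01. Xbp1, a transcription factor that builds the secretory apparatus, went the other way. Its brightest probe set read 11657, 16625 and 13035 in wild type and 17870, 20314 and 18602 in the double knockout, which passed after normalization (0.73, adjusted p = 0.00438) and not before it (0.47 ± 0.12, adjusted p = 0.0624). A second Xbp1 probe set rose under both scalings (9079 ± 1667 to 17493 ± 1803, log2 difference 0.96 ± 0.13), and 2 others did not pass, at -0.06 and -0.59.

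Of 14 measured surface mucous genes, 5 fell on the deposited values and 0 after normalization, where 2.12% and 2.25% of all probe sets fell. The 5 were the mucin gene Muc5ac, the trefoil factor gene Tff1, the gastrokine genes Gkn1 and Gkn2, and Psca. Tff1 read 98695 ± 8499 against 68734 ± 3116, a difference of -0.52 ± 0.11 that became 0.03. Gkn1 went from -0.58 ± 0.09 to 0.04 and Gkn2 from -0.52 ± 0.11 to 0.04. The deposited calls of Tff1 and Gkn2 were lost with any 1 array left out, that of Psca with any but double-knockout replicate 2, that of Gkn1 without double-knockout replicate 1 and that of Muc5ac without wild-type replicate 1, with adjusted p up to 0.108 for Gkn2. The lists' medians moved likewise, from -0.22 to -0.07 for parietal, from -0.34 to -0.09 for chief and from -0.15 to 0.01 for surface mucous cells. The list of 30 measured respiratory chain and citric acid cycle genes had 5 lower members on the deposited values and 0 after normalization, with medians of -0.32 and -0.08. None of the 6 mucous neck, 16 metaplasia-associated, 24 proliferation, 22 interferon response or 16 antigen presentation genes measured passed the limma test under either scaling. On the deposited values 5, 3, 1, 2 and 1 of them, in that order, had an unadjusted p under 0.05, where 19.6% of all probe sets had.

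**Figure D3:**
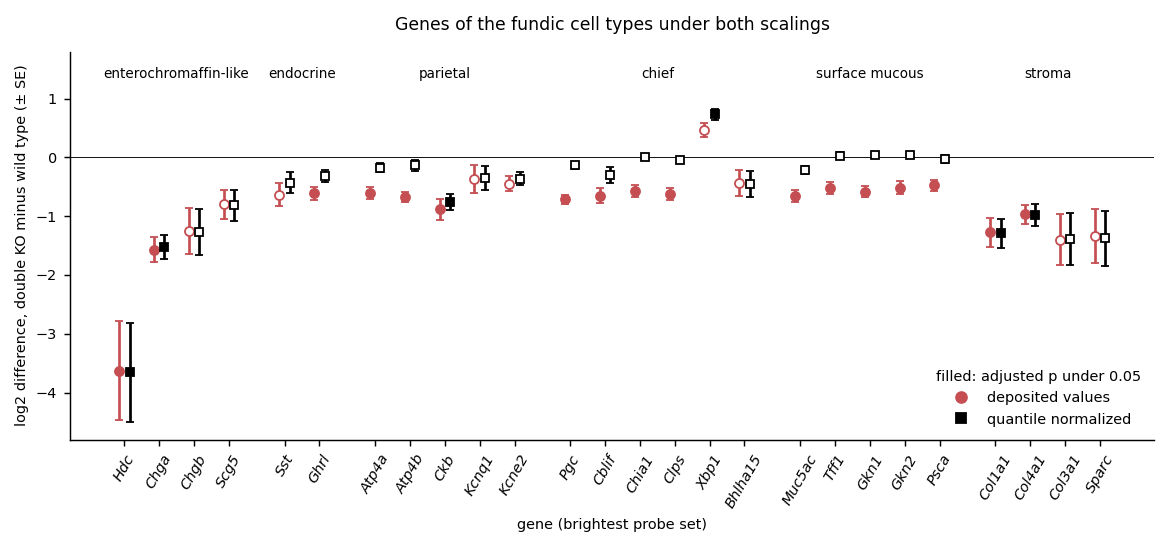
Log2 difference between double knockout and wild type (y axis, ± SE) of genes of the fundic cell types, each on its brightest probe set, for deposited values (circles) and after quantile normalization (squares), with filled symbols for adjusted p under 0.05. Hdc, Chga, Ckb, Col1a1 and Col4a1 are filled under both scalings. The parietal, chief and surface mucous genes filled only for deposited values move towards 0 after normalization. Xbp1, in the chief group, moves away from 0 and is filled only after normalization.

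Over all 22626 probe sets, 936 (4.14%) passed on the deposited values, 457 higher and 479 lower, and they named 754 genes. After quantile normalization 1058 (4.68%) passed, 549 higher and 509 lower, and 781 were called the same way under both scalings. The groups did not overlap for 5538 probe sets (24.5%). With 1 array fewer the count was lower each time. Without wild-type replicate 1 it was 332, without replicate 2 it was 403 and without replicate 3 it was 407. Without double-knockout replicate 1, 2 or 3 it was 323, 613 or 419. A fit to the 6 arrays alone, without the spread of the other 6, called 43. Dropping the pair of wild-type arrays with a high Gapdh ratio left 1 wild-type array, which was assumed to vary like the arrays of the other groups, and that fit called 76.

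The 15 largest rises among bright, non-overlapping probe sets were led by Pigr, the receptor that carries immunoglobulin A and M across epithelia. Pigr read 490, 304 and 355 in wild type and 2282, 1932 and 3509 in the double knockout, a log2 difference of 2.73 ± 0.30 (adjusted p = 0.00358). Its other probe set, which read 967, 657 and 759 against 2906, 2265 and 4402, rose as well (1.97 ± 0.27, adjusted p = 0.00833). Every double-knockout array was above every wild-type array on both. Pigr was also counted in the list of B and plasma cells, although it is a gene of epithelia. Of the 9 measured members of that list 2 rose, where 2.02% of all probe sets did. They were Pigr and the B cell adaptor gene Blnk (0.57 ± 0.13, adjusted p = 0.0486). The Blnk call was lost after normalization (adjusted p = 0.0508) and in 5 of 6 fits that left out an array, all but the one without wild-type replicate 1. Jchain, which joins immunoglobulin A and M into the polymers that Pigr carries, read 299, 234 and 260 against 891, 535 and 522 and did not pass (1.26 ± 0.43, adjusted p = 0.143). The heavy chain genes Igha (0.64, adjusted p = 0.539) and Ighm (-0.12, adjusted p = 0.713) did not pass either, and the part of B and plasma cells in the Pigr result was not tested.

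Transcriptional regulators among the 15 rises were Id4, Zfhx3, Nrip1 and Zfp280d. Id4, an inhibitor of basic helix-loop-helix factors, read 301, 276 and 348 in wild type and 853, 1210 and 1091 in the double knockout (1.76 ± 0.16, adjusted p = 0.00131). The groups were far apart on all 3 Id4 probe sets, and the other 2 rose by 1.28 ± 0.20 and 1.21 ± 0.17. Zfhx3, a large zinc finger and homeobox factor, read 174, 207 and 214 against 567, 542 and 724 (1.62 ± 0.18, adjusted p = 0.00449). It rose on 2 of its 3 probe sets, and the other one read 217, 336 and 205 against 388, 474 and 1394, without overlap. Nrip1, a corepressor of nuclear receptors, went from 283 ± 68.1 to 825 ± 182 on 1 of 2 probe sets (1.55 ± 0.18, adjusted p = 0.0053). Zfp280d, a zinc finger protein gene, went from 239 ± 115 to 680 ± 85.2 on 1 of 2 (1.62 ± 0.35, adjusted p = 0.0394).

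Another 6 of the 15 encode proteins that bind RNA or belong to the spliceosome, a grouping made after the genes were named and not tested. Sfpq, a splicing and paraspeckle protein, read 280, 241 and 367 in wild type and 930, 1790 and 1170 in the double knockout on 1 of 5 probe sets (2.10 ± 0.31, adjusted p = 0.0121). Snrpd3, a core protein of the spliceosomal particles, read 625, 470 and 545 against 1628, 2356 and 2266 on 1 of 3 (1.92 ± 0.19, adjusted p = 0.00239). The groups were well apart for both on these probe sets. The other Snrpd3 probe sets stood at 0.10 and -0.58 and did not pass. Luc7l2, a protein of the U1 particle, rose by 1.75 ± 0.24 on one probe set and by 1.33 ± 0.12 on another, of 5. Srsf1, a serine and arginine rich splicing factor, rose by 1.70 ± 0.28 on 1 of 6, Snrnp40 of the U5 particle by 1.64 ± 0.22 on 1 of 2, and the RNA-binding protein gene Rbm47 by 1.55 ± 0.27 on 1 of 2. The other Rbm47 probe set, dim in both groups, stood at -1.23 ± 0.59 and did not pass. In the list of splicing factors, which takes the brightest probe set of each gene, 2 of 23 measured members rose, where 2.02% of all probe sets did. They were Celf1 (0.77 ± 0.15, adjusted p = 0.028) and Hnrnpm (0.43 ± 0.08, adjusted p = 0.0313), and the list's median was 0.12. Both calls depended on single arrays, that of Celf1 being lost without wild-type replicate 1 or 3 or double-knockout replicate 2 or 3 (adjusted p up to 0.0863) and that of Hnrnpm with any left out but wild-type replicate 2 (up to 0.0923). On their brightest probe sets Sfpq stood at -0.09, Luc7l2 at 0.10 and Srsf1 at 0.40, and none of the 3 passed.

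The remaining rises were Mapre2, Fibp, Prss44 and Klk1. Mapre2, which binds the growing ends of microtubules, read 296, 229 and 274 in wild type and 1169, 2037 and 1664 in the double knockout (2.58 ± 0.24, adjusted p = 0.00178, 1 of 4 probe sets). Its brightest probe set stood at 0.04 and the others at -0.40 and -0.57, and none of them passed. Fibp, for a protein that binds a fibroblast growth factor inside the cell, read 65, 64 and 195 against 544, 557 and 595 (2.60 ± 0.50, adjusted p = 0.0283, 1 of 4). The wild-type values of Fibp were dim and the double-knockout values close together. The other Fibp probe sets stood at -0.37, 0.43 and 0.35 and did not pass. Klk1, tissue kallikrein, read 340, 315 and 326 against 698, 765 and 2164, so that double-knockout replicate 3 was far above the other two (1.68 ± 0.37, adjusted p = 0.0418, 1 of 3). The serine protease gene Prss44 went from 153 ± 83.2 to 540 ± 75.0 on 1 of 2 probe sets (2.02 ± 0.44, adjusted p = 0.0419).

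Among the 15 largest falls, Gast and Hdc came first, and 4 others encode proteins that are secreted or belong to the matrix. Rarres2, the chemoattractant chemerin, read 401, 795 and 548 in wild type and 31, 49 and -167 in the double knockout, at least 7.46-fold lower (adjusted p = 0.04, 1 of 3 probe sets). Bgn, the proteoglycan biglycan, read 751, 1150 and 874 against 305, 245 and 139 (-2.06 ± 0.37, adjusted p = 0.0222) and fell on all 3 of its probe sets, the others by 1.99 ± 0.34 and 1.54 ± 0.24. Double-knockout replicate 3 was the lowest array on each. Loxl1, which crosslinks elastin, read 465 ± 15.2 against 122 ± 58.8 (-2.07 ± 0.44, adjusted p = 0.0376). Sparc, a collagen-binding protein gene, read 1313, 2095 and 1932 against 708, 616 and 236 (-1.90 ± 0.43, adjusted p = 0.0467), and its brighter probe set did not pass (-1.34 ± 0.46, adjusted p = 0.151).

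The list of stroma and smooth muscle stood on the same side. It includes Sparc, was read on the same arrays and was chosen with earlier results of these data known, so it is not independent of these falls. Of its 18 measured genes 2 fell, 0 rose and 16 did not pass, where 2.12% of all probe sets fell and 2.02% rose. The double-knockout arrays were wholly below wild type for 14 of the 18 and wholly above for 0, where 12.9% and 11.6% of all probe sets were. The median log2 difference was -0.70, and -0.72 after normalization. In the saline-infused gastrin knockout, set against the same wild-type arrays, the list's median was -0.60, and between the 2 knockouts it was -0.06. Col1a1, a chain of fibrillar collagen, read 948, 979 and 874 against 444, 386 and 332 (-1.28 ± 0.24, adjusted p = 0.0259), and Col4a1, a chain of basement membrane collagen, read 2420, 2400 and 2587 against 1271, 1282 and 1224 (-0.97 ± 0.17, adjusted p = 0.0199). Within each group the arrays were close together for both genes. Leaving out any 1 of the 6 arrays ended the Col1a1 call (adjusted p up to 0.0791), and leaving out any but double-knockout replicate 2 ended that of Col4a1 (up to 0.0598). Col3a1 read 4840, 5888 and 6411 against 3415, 2633 and 1109 and did not pass (-1.40 ± 0.43, adjusted p = 0.113). On wild-type arrays the 18 genes summed to intensities from 26441 to 30287, on double-knockout arrays from 13238 to 21633, and how much stroma each scraping held was not tested.

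Genes of cell metabolism and membranes made up another part of the falls. Acsf2, a mitochondrial acyl-CoA synthetase, read 1655, 1239 and 1264 in wild type and 228, 294 and 326 in the double knockout (-2.30 ± 0.16, adjusted p = 0.000532). It has 1 probe set here, and the groups were far apart. One probe set of Atp5a1, a subunit of the mitochondrial ATP synthase, read 562 ± 96.6 against 71.0 ± 40.6, at least 6.43-fold lower (adjusted p = 0.00877). The other 2 Atp5a1 probe sets, with wild-type means of 34161 and 20658, stood at -0.36 ± 0.13 and -0.35 ± 0.14 and did not pass. Pi4k2a, a kinase of membrane lipids, was at least 4.99-fold lower on 1 of 2 probe sets (adjusted p = 0.0296). Ly6g2 went from 1131 ± 216 to 348 ± 32.0 (-1.69 ± 0.24, adjusted p = 0.0112), Pttg1ip from 464 ± 29.1 to 126 ± 39.8 (-1.94 ± 0.33, 1 of 3 probe sets) and Ubxn2a, for a UBX domain protein, from 2011 ± 480 to 429 ± 180 (-2.28 ± 0.28, 1 of 2).

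For 3 of the falls the probe sets of the gene disagreed, as they did for rises such as Mapre2 and Rbm47. Myh9, the heavy chain of non-muscle myosin, read 10008, 9779 and 10765 in wild type and 2496, 2827 and 2269 in the double knockout on one probe set (-2.01 ± 0.09, adjusted p = 2.25e-05). The groups were far apart there. A second Myh9 probe set fell by 0.44 ± 0.10 (adjusted p = 0.0412) and the other 2 stood at 0.66 ± 0.22 and 0.92 ± 0.29 without passing. Ywhaz, for a 14-3-3 protein that binds phosphorylated partners, read 6246, 6788 and 5183 against 1076, 1353 and 1678 on the probe set that fell (-2.16 ± 0.17, adjusted p = 0.00099). Of its 7 probe sets 1 fell, 2 rose (by 0.74 ± 0.12 and 0.64 ± 0.12) and 4 did not pass. Rbm39, a splicing factor gene, had 9 probe sets, of which 1 fell (-2.25 ± 0.36, adjusted p = 0.0151), 4 rose and 4 did not pass. One of those that rose read 35, 30 and 47 against 447, 412 and 374, a log2 difference of 3.48 ± 0.29. This was below the brightness required of a named rise and was chosen after its values were seen. Several probe sets were present for 449 of the bright genes called. A further one was called the same way in 64 of these genes, and one of opposite sign was present in 211.

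**Figure D4:**
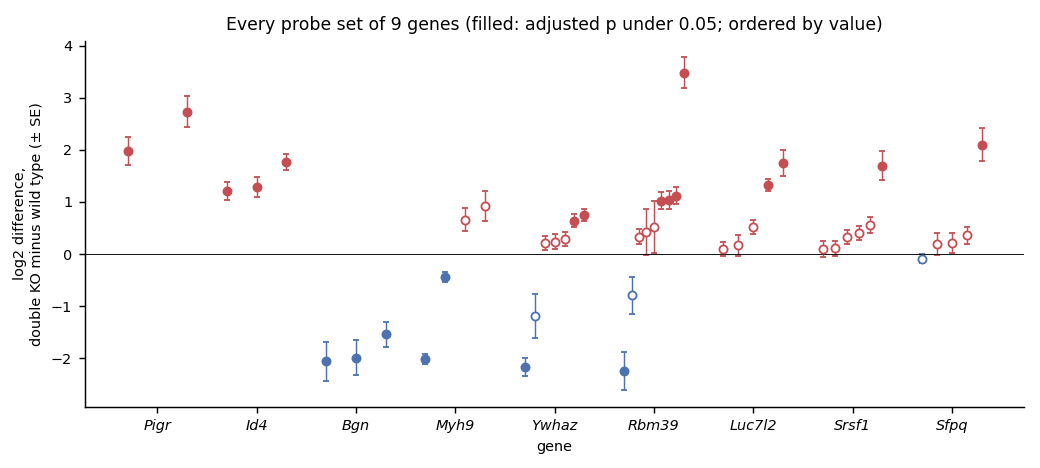
Log2 difference between double knockout and wild type (y axis, ± SE) of every probe set of 9 named genes (x axis), with red above 0, blue below 0, and filled symbols for adjusted p under 0.05. All probe sets of Pigr, Id4 and Bgn passed in 1 direction, while those of Myh9, Ywhaz and Rbm39 lie on both sides of 0.

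All 30 named genes were also called after quantile normalization. With each of the 6 arrays left out in turn, 18 of the 30 were called every time. The other 12 were Fibp, Prss44, Srsf1, Klk1, Zfp280d, Rbm47, Rarres2, Pi4k2a, Loxl1, Bgn, Pttg1ip and Sparc, with adjusted p up to 0.131 for Sparc. Calls lost numbered 12, 10 and 8 without wild-type replicate 1, 2 or 3, and 7, 5 and 9 without double-knockout replicate 1, 2 or 3. In the fit to the 6 arrays alone 4 of the 30 were called, and 5 were in the fit that kept 1 wild-type array.

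Smaller differences were found in other fixed lists, where 2.02% of all probe sets rose and 2.12% fell. Whether the counts in these lists exceed those shares was not tested. Anpep, an aminopeptidase of brush borders, read 3539, 5406 and 4223 against 1847, 1523 and 1459 and was the only one of 11 measured intestinal genes to pass (-1.43 ± 0.17, adjusted p = 0.00559). The groups did not overlap, and the call held with each array left out. Of 28 measured growth factor genes reported to respond to gastrin, 1 rose, the secreted lectin gene Reg1 (141 ± 23.3 to 268 ± 43.1, 0.92 ± 0.21, adjusted p = 0.0444), and 2 fell. Of these 2, Gast is itself deleted in these mice, so its fall was set by the genotype. The other was the survival factor gene Mcl1 (7176 ± 974 to 4391 ± 490, -0.71 ± 0.14, adjusted p = 0.035). Of 13 measured iron genes 2 fell, Hamp2, a hepcidin (-1.09 ± 0.23, adjusted p = 0.0397), and the ferritin gene Fth1, the latter not after normalization (-0.24, adjusted p = 0.244). The calls of Reg1 and Hamp2 were lost with any 1 array left out, with adjusted p up to 0.126 and 0.111, that of Mcl1 with any but double-knockout replicate 2, and that of Fth1 with any but wild-type replicate 1. None of the 12 T and natural killer, 14 myeloid, 10 mast, 8 fat, 5 blood, 15 circadian clock, 12 heat shock or 22 sterol and fatty acid synthesis genes measured passed the limma test. In that order 2, 3, 3, 1, 1, 3, 1 and 2 of them had an unadjusted p under 0.05, against 19.6% of all probe sets.

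Single members of further lists fell, where 2.12% of all probe sets did, and the lists were not tested as sets. Rps18, a protein of the small ribosomal subunit, read 33983, 37465 and 29173 in wild type and 19407, 20998 and 22009 in the double knockout. It fell under both scalings (-0.68 ± 0.09, and -0.42 after normalization) and with each array left out. It was 1 of 2 genes to fall among 13 measured ribosomal protein genes, whose median was -0.14 on the deposited values and 0.10 after normalization. In the list of glycogen and glucose genes, 2 of 20 measured fell, Ppp1r3c, which directs a phosphatase to glycogen (-0.86 ± 0.19, adjusted p = 0.0412), and Pfkl, a phosphofructokinase of glycolysis (-0.69 ± 0.12, adjusted p = 0.0222). The first call was lost with any array left out but double-knockout replicate 2 (adjusted p up to 0.117) and the second without wild-type replicate 2 or 3 or double-knockout replicate 1 (up to 0.0685). Eng, an endothelial receptor gene (-0.74 ± 0.17), Jund, an AP-1 transcription factor gene (-0.63 ± 0.13), and Ddit3, a stress-induced transcription factor gene (-0.61 ± 0.12), were each the only member of their list to pass. Each of these 3 calls was lost in 5 of 6 fits that left out an array, all but the ones without wild-type replicate 2, double-knockout replicate 2 and double-knockout replicate 3, respectively. Those of the lipase-related gene Pnliprp1 (-0.58 ± 0.12, the only one of 10 measured pancreatic genes) and of the drug-metabolizing genes Cyp1a1 and Gstp1 (-0.67 ± 0.16 and -0.50 ± 0.11, of 27 measured) were lost with any 1 array left out. The Gstp1 call was also lost after quantile normalization.

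The mouse fundus borders on a squamous forestomach, whose genes varied between arrays of 1 group. Krt13, a keratin of that epithelium, read 1453, 666 and 462 in wild type and 4929, 547 and 4986 in the double knockout. Replicates 1 and 3 of the double knockout were high and replicate 2 was low. The 19 measured genes summed to intensities from 25023 to 47265 on wild-type arrays and from 16671 to 78002 on double-knockout arrays. None passed the limma test, and 2 of the 19 had an unadjusted p under 0.05, where 19.6% of all probe sets had.

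The double knockout was set beside the saline-infused gastrin knockout, which lacks gastrin but was infused and keeps its Cck gene. Both differences from wild type share the wild-type arrays. Saline-infused arrays gave Hdc a mean of -59.3 ± 26.9, within the noise like the double knockout. Chga read 2088 ± 42.9 against 2583 ± 370 in the double knockout, a difference of 0.30 ± 0.21 that did not pass (adjusted p = 0.481). Anpep stood at -1.34 ± 0.17 from wild type in the saline-infused knockout (adjusted p = 0.0117) and at -1.43 ± 0.17 in the double knockout. Sst, at 6689 ± 1310 in the saline-infused knockout, was higher in the double knockout (0.83 ± 0.20, adjusted p = 0.0409), as was Kcnq1, at 1678 ± 507 against 3195 ± 651 (0.95 ± 0.24, adjusted p = 0.0484). Both calls lay close to the threshold, and whether they hold with an array left out was not tested.

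Over all probe sets the 2 knockouts differed at 1352 (5.98%), 728 higher in the double knockout (3.22%) and 624 lower (2.76%), and at 6.52% after quantile normalization. The first count was 496 or 890 without double-knockout replicate 1 or 2, and 590, 605 or 857 without saline-infused replicate 1, 2 or 3. The saline-infused knockout differed from wild type at 470 (2.08%), a count that was 285, 94 or 227 without each wild-type replicate in turn and 124, 193 or 212 without each saline-infused one. Of the named genes, which were chosen on the same double-knockout arrays, 8 of 15 rises and 7 of 15 falls also differed between the knockouts. Id4 read 310 ± 35.5 in the saline-infused knockout, next to 308 ± 36.6 in wild type, and was higher by 1.75 ± 0.16 in the double knockout (adjusted p = 0.00151). Zfhx3 read 135 ± 22.4 in the saline-infused knockout (difference 2.18 ± 0.18, adjusted p = 0.00105), Acsf2 1255 ± 165 (-2.16 ± 0.16, adjusted p = 0.000915) and Myh9 8751 ± 515 (-1.79 ± 0.09, adjusted p = 9.43e-05). On the named probe set of each of these 4 genes the saline-infused arrays lay nearer to wild type than to the double knockout. The other Myh9 probe sets were divided. On 2 of them the saline-infused means were 3858 and 1239, nearer to the double knockout (3969 and 1307) than to wild type (2508 and 726). On the remaining one it was 5690, against 5136 in wild type and 3782 in the double knockout. The probe sets of Pigr also differed in this. On the dimmer one the saline-infused knockout read 1192 ± 272, and the difference between the knockouts did not pass (1.09 ± 0.30, adjusted p = 0.0659). On the brighter one it read 2812 ± 655, next to 3191 ± 1097 in the double knockout (0.15 ± 0.27, adjusted p = 0.82) and 794 ± 158 in wild type. Rbm47 rose in both knockouts, by 1.46 ± 0.27 in the saline-infused one, and the knockouts differed by 0.09 ± 0.27 (adjusted p = 0.915). The control transcripts differed between these groups as well, since BioC (5' probe set) read 6794 ± 764 in the saline-infused knockout, and their part in the differences was not tested.

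**Figure D5:**
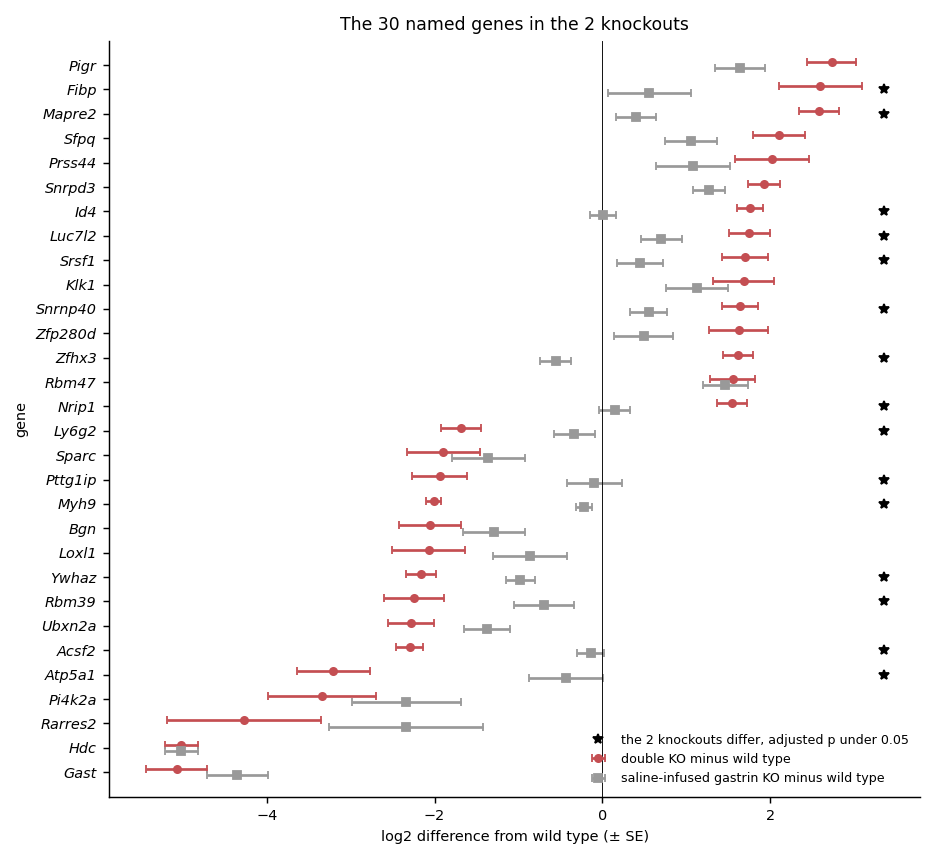
Log2 difference from wild type (x axis, ± SE) of the 30 named genes in the double knockout (red circles) and in the saline-infused gastrin knockout (grey squares), which share the 3 wild-type arrays. Stars mark the 8 rises and 7 falls whose values differ between the knockouts at adjusted p under 0.05, and Hdc and Rbm47 lie together in both.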

How the data were processed

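Biotin-labelled RNA (about 1 µg of total RNA per sample, extracted with Trizol and a column kit, per the labels' protocols) was measured on 12 one-colour arrays, 3 in each of 4 groups, of which 6 are compared here. The deposited table holds 1 linear intensity per probe set and array. How the authors summarized, background-corrected and scaled these intensities is not given in the sources used here.

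The table has 22690 probe sets, and 64 controls were left out. Among the 22626 tested, 20380 had 1 gene symbol in the platform annotation, 691 had several and 1555 had none, and 20351 gene identifiers were matched in the gene table of GRCm38.p6, which changed 0 symbols. Values under 16 were raised to 16 (7.57% to 8.30% of the values on each of the 6 arrays) and log2 was taken. No depth applies to arrays, whose number limits the precision. One mean per group was fitted over all 12 arrays (limma 3.58.1, R 4.3.3, 8 residual and 1.10 prior degrees of freedom), with p-values adjusted by Benjamini-Hochberg over all 22626 and called under 0.05, and again after quantile normalization. An adjusted p without a named test is from the first fit. Noise was taken as percentile 1 of an array with the sign turned, 80.2 on average in wild type and 75.3 in the double knockout. Where a group's mean lay within it, fold changes are bounds, from the mean log2 values of the bright group and, on each array of the dim group, whichever of the noise and the value was higher.

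Named genes were the 15 largest rises and falls among called probe sets with 1 symbol, no overlap between groups, and a brighter mean no lower than the overall median (412), 1 probe set per gene. Members of the 36 gene lists, Gast, Cck and their receptors could be named whatever their result. Lists take the probe set with the highest mean of each gene, 544 entries measured in all, and are described by counts and medians. The comparison and lists were chosen with earlier results of these data known. The fit was tested on simulated data. The alternatives were another centring, filter, floors, a fit to the 6 arrays alone, the replicate block, an intensity trend, a Gapdh covariate, array weights and leaving out each wild-type or double-knockout array. A fit that dropped the pair of wild-type arrays with a high Gapdh ratio, quantile normalization of the 6 arrays alone and leaving out each saline-infused array were added after seeing the data. Promoter windows came from RefSeq (GRCm38.p6), and all 3 genes shown were matched. Plots used matplotlib 3.10.9 under Python 3.11.15.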

Additional observations from a re-analysis of the deposited data

Results flagged for a closer look

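The BioB hybridization control, which the comparisons leave out, gave a signal in the double knockout above every wild-type array. Its 5' probe set had a mean intensity of 731 in the double knockout, against 251, 204 and 173 on the wild-type arrays. Its 3' probe set had a mean of 648, against 78, 128 and 59.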

How the results depend on the processing

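The 936 calls between double knockout and wild type (457 higher, 479 lower) became 43 (22 and 21) in a fit to the 6 arrays alone, 1507 (716 and 791) with array weights, 607 with the Gapdh ratio as a covariate (263 lower), 76 (27 and 49) with the pair of wild-type arrays of high Gapdh ratio dropped, which left 1 wild-type array, assumed to vary like the other groups, and 203 (123 and 80) with quantile normalization of the 6 arrays alone. Centring on array medians gave 295 higher, and the filter on dim probe sets gave 733 lower. Leaving out 1 array gave 323 to 613 calls, 166 to 250 higher and 142 to 384 lower, and 468 to 620 after quantile normalization. The 6-array fit and those with arrays dropped have fewer samples, the filter fewer probe sets, and for the other settings the cause was not tested. The 1352 calls between the knockouts became 2374 with array weights and 496 to 1251 with 1 wild-type, double-knockout or saline-infused array left out. The 470 calls between the saline-infused knockout and wild type became 744 with quantile normalization, 285 with centring, 815 with the filter, 239 with the replicate block, 47 with the covariate, 77 with that pair dropped, and 94 to 533 with 1 such array left out. Signs turned after quantile normalization, of all 12 arrays and of the 6 alone, for Chia1 (0.0116 and 0.0101), Tff1 (0.0294 and 0.0264), Gkn1 (0.0415 and 0.0304) and Gkn2 (0.0434 and 0.0487). Same-numbered arrays did not deviate together (r of 0.0221, 0.0103 and -0.021), and with the replicate block 703 probe sets were called, 594 of them shared with the 936, and 23 of the 30 named genes. Of 1439 values of 81 single probe sets under the alternatives, 948 stayed on their side of the threshold, 5 of them with the opposite sign and uncalled in both fits. A call was lost in 474 and gained in 9, and 8 called values changed sign.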
